A study of Mus musculus with 51 samples.

Results

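The sites described here are weak zygonema H3K4me3 sites that were backed by other antibodies, called supported weak sites. Peaks of the 10 EpiCypher H3K4me3 lists were merged into 25578 sites on chromosomes 1 to 19. A supported weak site had a peak in exactly 1 of the 2 zygonema lists and in none of the 6 lists of early pachynema, late pachynema and diplonema. It also had no GENCODE M21 transcript 5′ end within 500 bp, and it overlapped by at least 1 bp both a zygonema H3K9ac peak and a zygonema H3K4me2/3 peak. The members were thus selected on zygonema and later H3K4me3 calls and on zygonema H3K9ac and H3K4me2/3 calls, which are given here as a description. There were 1999 such sites, 7.82% of all merged sites and 35.6% of the 5619 weak distal zygonema sites. Of the other weak sites, 1984 had 1 of the supporting marks and 1636 had neither, and these last are called unsupported. Another 3125 distal sites, with a peak in both zygonema lists and in no later list, are called strong.

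The study sorted spermatocyte nuclei by flow cytometry from formaldehyde-fixed whole testis into leptonema, zygonema, early and late pachynema, and diplonema. Every group came from adult wild-type male mice of the strain C57Bl/6J with no treatment, and the groups differ in sorted population, antibody and experiment. H3K4me3 was profiled in experiments 1 and 2 at each stage, H3K9ac in experiment 1, and H3K4me2/3, with an Abcam antibody that binds both methylation states, in experiment 2. The 20 lists hold peaks called per library, without a height or read count, so the depth behind a peak is unknown. The zygonema lists had a promoter peak at 8 of 8 meiotic prophase genes in both experiments. Marker lists of 5 genes each were used for spermatogonia, Sertoli cells, Leydig cells and spermatids, and 4 of the Sertoli genes were found. No more than 1 gene of each such list had a promoter peak in either experiment. The antibody field of the stage H3K9ac libraries names H3K4me3, although their titles and the catalogue number name H3K9ac, and the titles were followed.

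In meiotic prophase, PRDM9 binds DNA through a zinc finger array and trimethylates H3K4 and H3K36 on the nucleosomes around its binding site. SPO11 then makes the DNA double-strand breaks of meiotic recombination at a subset of these places, called hotspots, which in mice with functional PRDM9 lie mostly away from promoters. H3K4me3 also marks active promoters, and H3K9ac is a mark of open, active chromatin. Distal H3K4me3 that is present in zygonema and gone later is the class in which PRDM9-dependent sites are looked for. A second antibody shows whether a site seen in a single list also has a peak of another kind. Since H3K9ac is a different mark and the Abcam antibody binds H3K4me2 as well, such a peak is not a repeat of the H3K4me3 call.

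Short words learned at the strong sites were found at the centres of the supported weak sites more often than in their flanks. The 20 words of 8 bp that gained most within 100 bp of the centre of strong sites, over flanks of the same length starting 500 bp away, were learned at strong sites alone. The first was GCAGCAGC, or GCTGCTGC on the opposite strand, followed by CAGCAGCA, GATGCTGC and GCAGCACC. The next sequences are the centres of the supported weak sites with the most different words, shown because they show how the words overlap into longer runs. Each is 200 bp of GRCm38 (mm10), and capitals mark the words.
Rrbp1 site, chr2:143963582-143963781, plus strand: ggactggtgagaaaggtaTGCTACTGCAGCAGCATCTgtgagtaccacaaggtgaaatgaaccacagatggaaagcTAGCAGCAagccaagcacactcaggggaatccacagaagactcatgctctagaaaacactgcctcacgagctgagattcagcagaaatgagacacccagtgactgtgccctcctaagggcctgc
Sesn3 site, chr9:14283829-14284028, plus strand: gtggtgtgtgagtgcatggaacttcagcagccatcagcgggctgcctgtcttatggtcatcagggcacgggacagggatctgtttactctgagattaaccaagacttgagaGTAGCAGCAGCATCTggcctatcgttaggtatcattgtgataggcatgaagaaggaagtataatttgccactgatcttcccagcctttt
chromosome 5 site, chr5:116957882-116958081, plus strand: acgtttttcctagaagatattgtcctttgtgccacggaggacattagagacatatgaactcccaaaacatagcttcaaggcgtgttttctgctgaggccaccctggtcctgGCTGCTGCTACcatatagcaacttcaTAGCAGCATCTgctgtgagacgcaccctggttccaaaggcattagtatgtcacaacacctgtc
chromosome 6 site, chr6:138764070-138764269, plus strand: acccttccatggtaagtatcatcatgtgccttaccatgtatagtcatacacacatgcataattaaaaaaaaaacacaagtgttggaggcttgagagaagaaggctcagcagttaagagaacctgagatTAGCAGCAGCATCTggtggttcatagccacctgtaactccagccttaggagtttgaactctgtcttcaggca
chromosome 3 site, chr3:104565619-104565818, plus strand: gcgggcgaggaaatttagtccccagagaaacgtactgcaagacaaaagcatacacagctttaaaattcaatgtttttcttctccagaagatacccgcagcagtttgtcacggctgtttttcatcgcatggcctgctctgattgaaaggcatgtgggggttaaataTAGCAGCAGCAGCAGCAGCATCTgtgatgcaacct

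The 5 sequences held 7 or 8 different words each, mostly as words that overlap one another in the same stretch. At the Sesn3 site, for example, 8 words lay within 15 bp. The first sequence lay at Rrbp1, which encodes a ribosome-binding protein of the endoplasmic reticulum, and the site touched an exon, although the window printed did not. The second lay in an intron of Sesn3, which encodes a stress-responsive sestrin, and the other three were intergenic. A further site with 7 words, chr6:148832477-148833097 at 2610017A05Rik, touched an exon and its sequence is not shown. It lay 1010 bp from the nearest 5′ end. All 6 were called in experiment 1. The Rrbp1 and Sesn3 sites had no peak in any of the 10 lists outside the rule. The sites on chromosomes 5 and 3 had a leptonema H3K4me2/3 peak, of 181 bp and 942 bp. The site on chromosome 6 had a leptonema H3K4me3 peak of 585 bp in experiment 2, and the 2610017A05Rik site a late pachynema H3K4me2/3 peak.

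Other members held no word in the same window. The next 3 sequences are shown as the contrast, from the members at annotated hotspots and from the single member with a peak in all 4 leptonema lists. They have no capitals because none of the words was found.
Sdccag8 hotspot site, chr1:176887266-176887465, plus strand: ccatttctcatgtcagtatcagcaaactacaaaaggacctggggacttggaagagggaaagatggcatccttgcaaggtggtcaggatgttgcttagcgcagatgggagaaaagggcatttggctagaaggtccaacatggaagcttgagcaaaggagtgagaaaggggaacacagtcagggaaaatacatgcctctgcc
chromosome 17 hotspot site, chr17:31363247-31363446, plus strand: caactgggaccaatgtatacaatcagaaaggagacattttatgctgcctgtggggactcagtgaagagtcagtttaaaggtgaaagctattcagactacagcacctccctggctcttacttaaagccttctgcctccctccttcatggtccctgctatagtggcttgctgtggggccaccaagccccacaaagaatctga
chromosome 11 site, chr11:79974223-79974422, plus strand: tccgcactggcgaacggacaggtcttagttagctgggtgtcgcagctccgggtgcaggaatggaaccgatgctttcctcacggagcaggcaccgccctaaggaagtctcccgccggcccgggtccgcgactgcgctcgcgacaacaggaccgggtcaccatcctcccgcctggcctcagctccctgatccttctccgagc

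The Sdccag8 hotspot site, an intronic site in a gene for a centrosomal protein, spanned only 185 bp in zygonema experiment 1 and lay inside an H3K9ac peak of 718 bp and an H3K4me2/3 peak of 881 bp. The chromosome 17 hotspot site was intergenic, with peaks of 388 bp, 436 bp and 466 bp for the 3 antibodies. Neither had a peak in any list outside the rule. Of the 14 hotspots annotated in the source tables, 2 overlapped a supported weak site, 10 a strong site, 1 another merged site and 1 none. These 14 were annotated for regions drawn in figures and are not a genome-wide set, so the counts are not hotspot rates of the groups. The chromosome 11 site had peaks in 7 of the 10 lists outside the rule, with leptonema widths of 650 bp and 1320 bp for H3K4me3, 1555 bp for H3K4me2/3 and 153 bp for H3K9ac. Its zygonema H3K4me3 peak was called in experiment 2 and measured 186 bp.

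Of 1937 supported weak sites outside chromosome 18, 757 (39.1%, 95% exact binomial interval 36.9 to 41.3) held at least 1 of the 20 words within 100 bp of the centre. In the flanks the mean share was 15.5%, which leaves a difference of 23.5 percentage points. All 20 words were found in more centres than flanks of the supported weak sites, by 1.84-fold to 10.1-fold. GATGCTAC, the word with the largest ratio, was in 76 centres against a mean of 7.5 flanks, and GCAGCAGC was in 163 against 36.5. At the strong sites on which the words were learned, 40.6% of centres and 13.8% of flanks held a word. The share was 34.4% at weak sites with 1 supporting mark (flanks 12.8%) and 27.5% at unsupported sites (flanks 13.2%). Among sites called in zygonema experiment 1 alone it was 39.5% for supported, 35.7% for 1 mark and 30.6% for unsupported sites. As background, 20.1% of merged sites at a transcript 5′ end and 15.3% of 31396 RefSeq promoters, in their first 200 bp, held a word. These shares are over sites, which are not replicates, and were described without a test. A word is a string of letters and not evidence of binding.

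**Figure D1:**
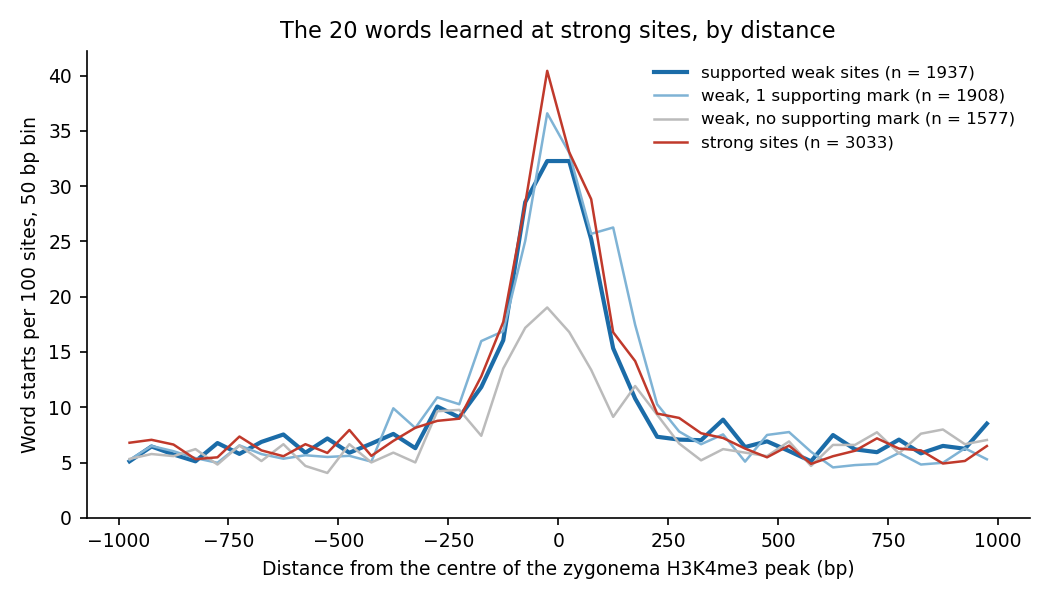
Word starts per 100 sites (vertical axis) in bins of 50 bp against distance in bp from the centre of the zygonema H3K4me3 peak, for 4 groups of sites outside chromosome 18. The supported weak sites reach 32.3 on either side of the centre against a mean of 6.37 beyond 500 bp, under the highest bins of the strong sites (40.4) and of the sites with 1 supporting mark (36.6) and over those of the unsupported sites.

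The words gathered at the centre of the peaks. A run of overlapping words was counted once for every word start in it. In the 2 bins of 50 bp next to the centre there were 32.3 word starts per 100 supported weak sites, 5.07 times the mean of 6.37 beyond 500 bp. The density was over 2 times that mean in bins up to 125 bp from the centre on both sides. The strong sites reached 6.63 times their far mean, the sites with 1 supporting mark 6.52 times and the unsupported sites 3.11 times. The highest bin was thus lower at supported sites than at those with 1 mark (36.6 per 100 sites), although more of the supported sites held a word. In the bins with middles at -75, 25 and 75 bp the supported sites had 28.5, 32.3 and 25.2. The sites with 1 mark had 25.1, 33.0 and 25.7 there. Within the supported weak sites, the share with a word did not follow the width of the zygonema peak. With the peaks of experiment 1 in 4 classes by width quartile, it was 168 of 467 in the narrowest class, 44.2% and 42.7% in the middle classes and 35.2% in the widest. It was 39.3% with a leptonema H3K4me2/3 peak and 38.9% without. Sites with an H3K4me2/3 peak in early pachynema, late pachynema or diplonema had a word in 28.1% of 89 cases, and those without in 39.6% of 1848.

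In 1180 members no word was found, 292 held 1 different word, 167 held 2 and 298 held 3 or more. Because many of the words overlap, 1 run of letters can count as several different words. The absence of a word says only that these letters were not within 100 bp of the centre.

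The zygonema lists did not contribute equally. Of the 1999 members, 1926 (96.3%) were called in experiment 1 and 73 (3.65%) in experiment 2. Of the weak sites called in experiment 1, 39.3% of 4901 were supported, and of those called in experiment 2, 10.2% of 718. The H3K9ac support came from experiment 1 and the H3K4me2/3 support from experiment 2. By the rule, every member thus had peaks from both experiments with different antibodies, whichever zygonema list called it. The zygonema list of experiment 1 held 15699 peaks and that of experiment 2 held 11314, and the part of list length in this split was not tested. With the list of experiment 2 left out, 4588 sites met the remaining conditions, since strong sites then counted as well, and with that of experiment 1 left out, 2677. With the wider peaks of each list, 614 did.

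In zygonema experiment 1, peaks were wider at the sites with more support. The rule set no width, but a wider peak can meet an overlap more easily. The zygonema H3K4me3 peaks of experiment 1 had a median width of 672 bp at supported weak sites (quartiles 488 bp and 853 bp). The median was 996 bp at strong sites, 512 bp with 1 supporting mark and 375 bp at unsupported sites. In zygonema experiment 2 no such order was seen, with medians of 243 bp at the 73 members, 248 bp with 1 mark and 246.5 bp at unsupported sites, against 649 bp at strong sites. The supporting peaks were narrower at members than at strong sites as well, with 632 bp against 982 bp for H3K9ac and 730 bp against 1089.5 bp for H3K4me2/3. The quartile ranges of members and strong sites overlapped for all 3 antibodies. Whole members ranged from 150 bp to 2226 bp with a median of 669 bp.

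**Figure D2:**
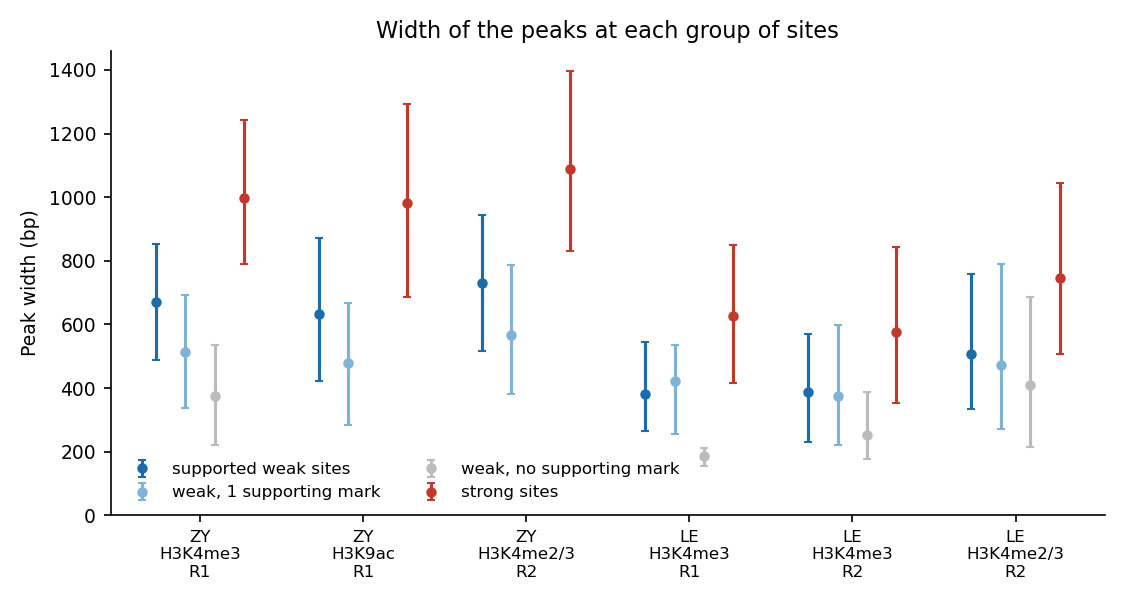
Width in bp (vertical axis) of the peaks of 3 zygonema and 3 leptonema lists at 4 groups of sites, as the median (point) and the quartiles (bars). In every list drawn the median of the supported weak sites (blue) lies under that of the strong sites (red), for example 672 bp against 996 bp for zygonema H3K4me3 of experiment 1.

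The overlaps behind the rule were mostly long. The H3K9ac peak shared a median of 453 bp with the site and covered a median of 78.1% of it, and the H3K4me2/3 peak shared 523 bp and covered 87.7%. The shortest were 1 bp of H3K9ac at chr3:35676923-35677791 and 2 bp of H3K4me2/3 at chr8:124992370-124992664, whose nearest 5′ end was that of Tsnax, a partner of the RNA-binding protein translin. The members rested on 1991 different H3K9ac peaks and 1992 different H3K4me2/3 peaks, and at 57 members a supporting peak also reached another merged site, at 22 of them a site at a transcript 5′ end. At the edges of the rule, 73 members had an H3K9ac overlap of 1 to 100 bp and 31 otherwise similar sites missed an H3K9ac peak by up to 100 bp. For H3K4me2/3, 45 members lay just inside and 20 sites just outside. The nearest 5′ end lay over 500 and up to 600 bp away at 21 members, and at 14 otherwise similar sites it lay up to 100 bp inside the limit. Another 21 sites met every condition but had a peak in 1 of the 6 later H3K4me3 lists.

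Leptonema lists were not used by the rule. A leptonema H3K4me3 peak was found at 130 members in experiment 1 (6.50%, interval 5.46 to 7.67) and at 118 in experiment 2 (5.90%, 4.91 to 7.03). The shares over all merged sites were 37.0% and 51.0%, and over distal merged sites 14.1% and 25.5%. These 2 leptonema lists were among those merged, so their own peaks raise these shares, whereas every member had a zygonema peak. For example, 1631 distal sites had a peak in exactly 1 leptonema list and at no other stage. At members the mean of the 2 experiments was 6.20%. It was 26.4% without the zygonema list of experiment 2 and 41.2% without that of experiment 1, where strong sites were included. Strong sites had a peak in 41.2% and 32.5%, and unsupported sites in 0.306% and 1.77%. The H3K4me2/3 antibody gave a leptonema peak at 814 members (40.7%, 38.6 to 42.9), against 78.1% of strong sites, 7.03% of unsupported sites, 69.5% of all merged sites and 47.2% of distal merged sites. H3K9ac gave a leptonema peak at 2 members (0.100%), with 10.9% of all merged sites and 0.620% of distal merged sites. The leptonema H3K9ac list held 2823 peaks and the zygonema list 16003.

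Counted per site, 186 members (9.30%) had leptonema H3K4me3 in at least 1 experiment and 62 in both. All 62 also had a leptonema H3K4me2/3 peak. Another 642 members (32.1%) had H3K4me2/3 in leptonema without H3K4me3, and 1171 (58.6%) had a peak in no leptonema list. The leptonema peaks at members had median widths of 383 bp and 387 bp for H3K4me3 in experiments 1 and 2 and 508.5 bp for H3K4me2/3. In experiment 1 sites with 1 supporting mark had a higher leptonema H3K4me3 median, of 422 bp over 31 peaks.

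**Figure D3:**
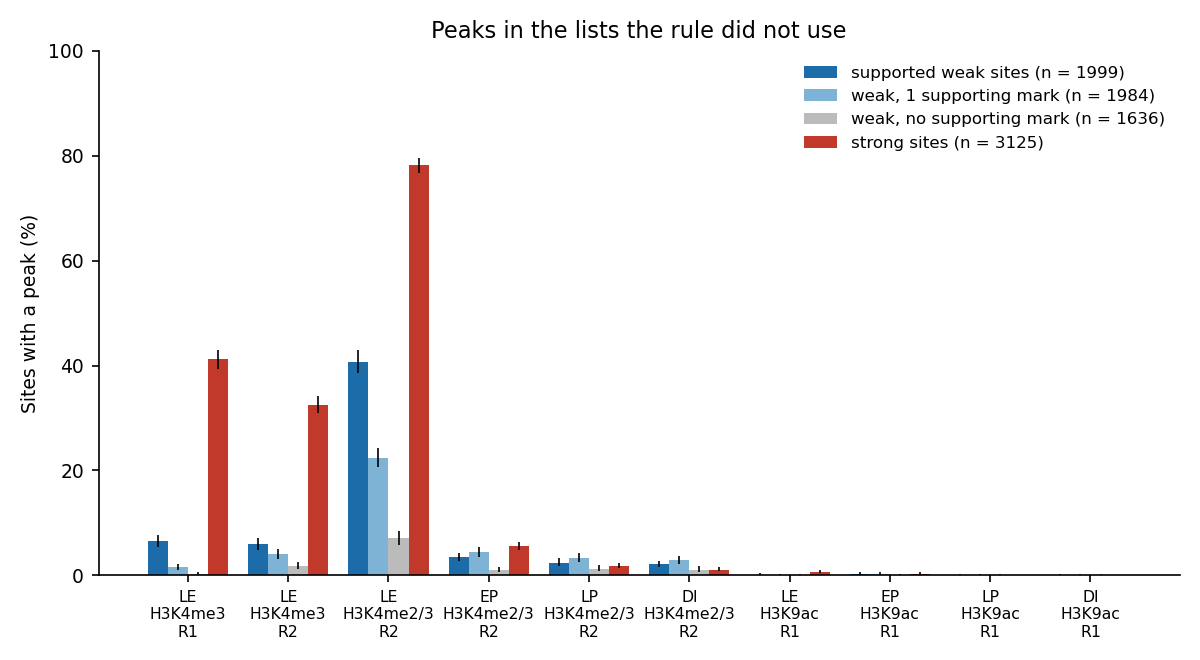
Share of sites with a peak in percent (vertical axis) in each of the 10 lists the rule did not use, for supported weak sites, weak sites with 1 or no supporting mark and strong sites, with 95% exact binomial intervals over sites as bars. In the 3 leptonema lists of H3K4me3 and H3K4me2/3 the supported weak sites (6.50%, 5.90% and 40.7%) lie between the unsupported and the strong sites.

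In the later stages, H3K4me2/3 peaks were found at 69 members (3.45%) in early and 49 (2.45%) in late pachynema, and at 42 (interval 1.52% to 2.83%) at diplonema. Over all merged sites these shares were 48.6%, 51.9% and 51.0%, and over distal merged sites 15.4%, 18.3% and 17.9%. The rule had excluded every site with a later H3K4me3 peak, and this antibody also binds H3K4me3. In all, 91 members (4.55%) had a later H3K4me2/3 peak, 81 of them with a leptonema peak as well, and 26 had a peak at all 5 stages. The commonest patterns of H3K4me2/3 were zygonema alone, at 1175 members (58.8%), and leptonema with zygonema, at 733 (36.7%). Later H3K9ac was found at 5 members, all in early pachynema (0.250%, against 28.2% of all merged sites and 3.24% of distal merged sites). No member had an H3K9ac peak in late pachynema or diplonema, which allows a share of up to 0.184% in each. Over all merged sites these shares were 6.64% and 1.97%, and over distal merged sites 0.681% and 0.612%. Those lists held 1727 and 516 peaks in all.

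Across the lists outside the rule, supported weak sites were compared with the other groups over 8 units, each a sorted population of an experiment with its lists averaged. The share with a peak was higher at supported than at unsupported sites in 6 of the 8 units, lower in 1 and equal in 1, by a mean of 3.35 percentage points ± 6.39 (SD, n = 8). The difference passed a two-sided exact sign-flip test (p = 0.03125). The smallest possible is 0.0078125 with 8 units that all differ from 0, and it is higher here, where 1 unit was equal. It was largest in leptonema, with 3.15 points in experiment 1 and 18.9 points in experiment 2, and between -0.0611 and 2.41 points in the later populations. Restricted to sites called in zygonema experiment 1 it was 3.25 points and in experiment 2 17.9 points, with an exact p of 0.03125 in each. With support from H3K9ac whatever H3K4me2/3 showed, it was 1.62 points (exact p = 0.5). Without the zygonema list of experiment 1 it was 9.83 points (exact p = 0.21875), and with equal list sizes, which left 58 members, it was 6.35 points (exact p = 0.0625). With signs flipped by experiment, the replicate block, the value was again 3.35 points, and an exact p under 0.5 cannot be reached. Every unit held a list of H3K9ac or H3K4me2/3, the antibodies that also chose the members, so the units are not independent of the rule. The later units of experiment 1 rested on H3K9ac alone and on few peaks. In early pachynema 5 members and 1 unsupported site had such a peak, and in diplonema 0 and 1.

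Compared with the strong sites, the supported weak sites had lower shares by a mean of 6.26 points, given as -6.26 ± 12.1 (SD, n = 8), which did not pass the same test (exact p = 0.21875). The units differed by stage, and 2 were equal, which raises the smallest p the test can reach. In leptonema the members were lower by 17.6 points in experiment 1 (-17.6) and 32.0 points in experiment 2 (-32.0). In late pachynema and diplonema of experiment 2 they were higher by 0.659 and 1.01 points. The test shows neither equality nor a difference. Members called in zygonema experiment 1 differed from strong sites by -6.86 points (exact p = 0.09375) and those called in experiment 2 by 9.50 points in the other direction (exact p = 0.1875).

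**Figure D4:**
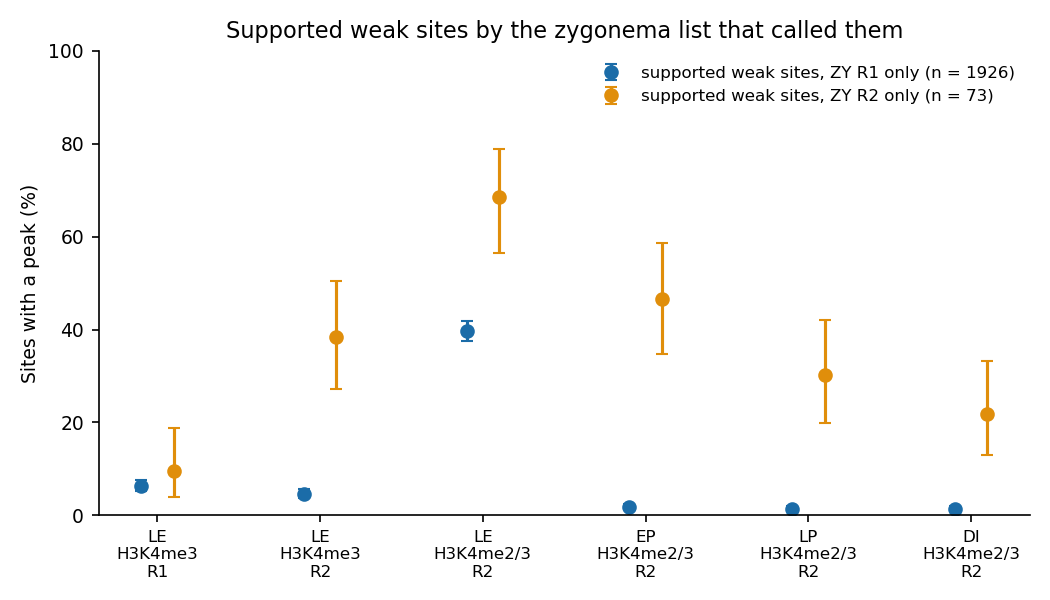
Share of supported weak sites with a peak in percent (vertical axis) in 6 leptonema and later lists, separately for members called in zygonema experiment 1 (n = 1926) and in experiment 2 (n = 73), with 95% exact binomial intervals over sites. Members called in experiment 2 have the higher share in each list, for example 46.6% against 1.82% for early pachynema H3K4me2/3.

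The 73 members called in zygonema experiment 2 had another stage pattern than the 1926 called in experiment 1. Leptonema H3K4me3 was found at 9.59% of them in experiment 1 and 38.4% in experiment 2, against 6.39% and 4.67%. Leptonema H3K4me2/3 was found at 68.5% against 39.7%. In early pachynema, late pachynema and diplonema, H3K4me2/3 was found at 46.6%, 30.1% and 21.9%, against 1.82%, 1.40% and 1.35%. The 161 weak sites with 1 supporting mark called in experiment 2 had like values, with 34.8% for leptonema H3K4me3 of experiment 2, 72.0% for leptonema H3K4me2/3 and 39.1%, 30.4% and 23.6% for the later H3K4me2/3 lists. At the 484 unsupported sites called in experiment 2 the same lists gave lower shares, 5.17%, 12.0%, 3.10%, 3.31% and 2.27%. Over both experiments, 1641 of the 1984 sites with 1 mark had H3K4me2/3 as that mark. A later H3K4me2/3 peak was present at 37 of the 73 (50.7%, interval 38.7 to 62.6) and at 54 of the 1926 (2.80%, 2.11 to 3.64). Their centres held a word in 28.2% of 71 cases (interval 18.1 to 40.1, flanks 17.6%), against 39.5% (37.3 to 41.8, flanks 15.5%). Their median GC content over 500 bp was 51.2% against 44.9%, and 54.8% of them were intergenic against 30.5%. The H3K4me2/3 lists and the leptonema list with 38.4% came from experiment 2, as did the zygonema list that called these sites. The experiment, with its lower zygonema purity in the paper, and the kind of site cannot be told apart here, and the difference was not tested.

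Members with wide peaks gave examples of both, taken by the mean percentile of their zygonema H3K4me3, H3K9ac and H3K4me2/3 widths within each list. The highest of those called in experiment 1 was chr3:94855841-94858066, which touched an exon of Pogz, a gene for a zinc finger chromatin protein, with widths of 2226 bp, 1863 bp and 1986 bp for H3K4me3, H3K9ac and H3K4me2/3 and no peak outside the rule. It was followed in this mean percentile by an intronic site of Mapk8, the gene of a stress-activated kinase (JNK1), at chr14:33440536-33441986, and by chr1:131829082-131830037 at an exon of Slc41a1, a magnesium transporter gene. The Mapk8 site also had a leptonema H3K4me2/3 peak of 488 bp, and the Slc41a1 site had one of 2431 bp as well as a diplonema peak. The Slc41a1 site lay 1105 bp from a 5′ end of that gene. Its zygonema H3K9ac and H3K4me2/3 peaks measured 2628 bp and 2383 bp. Among members called in experiment 2, chr1:75477389-75478184 touched an exon of Chpf, a chondroitin polymerizing factor, 562 bp from a 5′ end. It had leptonema peaks of 257 bp and 623 bp for H3K4me3 and of 2754 bp for H3K4me2/3. The site chr1:163312266-163312727 touched an exon of Prrx1, a homeobox gene, 941 bp from a 5′ end of that gene. Its zygonema H3K9ac and H3K4me2/3 peaks measured 1933 bp and 2369 bp, and it had H3K4me2/3 at all 5 stages. The site chr1:166709574-166710075 was intergenic, 27729 bp from the 5′ end of Fmo9, a flavin monooxygenase family gene, and had H3K4me2/3 in early pachynema.

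Of the supported weak sites, 333 (16.7%) touched an exon, 1039 (52.0%) lay in an intron and 627 (31.4%) were intergenic. Unsupported sites touched an exon in 7.95% and were intergenic in 49.8%, and strong sites in 16.0% and 39.2%. Supported sites were also wider than unsupported ones, and the part of width in this was not tested. The members fell in the bodies of 1141 protein-coding genes, 137 of which held 2 or more. The nearest 5′ end was a median of 10812 bp away (quartiles 4133 bp and 25031 bp). The closest was that of Xrn1, a 5′ to 3′ exoribonuclease gene, 501 bp from chr9:95970764-95971244. The farthest was that of Gm25485, 448203 bp from chr4:50734949-50735817.

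**Figure D5:**
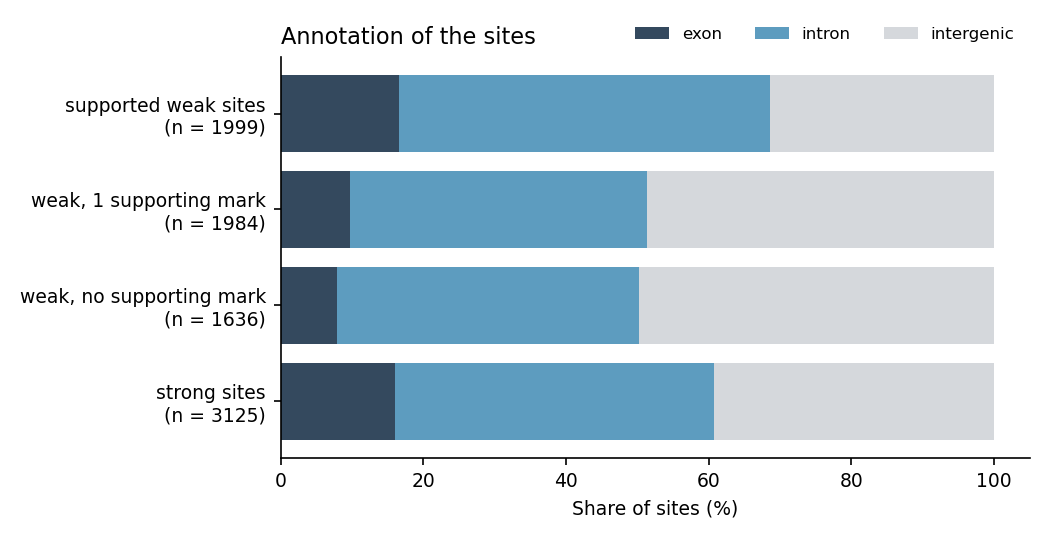
Share of sites in percent (horizontal axis) that touch an exon, lie in an intron or are intergenic in GENCODE M21, for 4 groups of sites. Supported weak sites are intergenic in 31.4% and unsupported sites in 49.8%.

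The median GC content over 500 bp at the centre was 45.0% at members, against 43.8% in windows 4500 to 5000 bp away, and 43.8% at strong and 43.0% at unsupported sites. Masked repeats made up a mean of 20.7% of the bases at members and 26.3% in those windows. Within 2000 bp of a strong site lay 14 members, against 105 (6.42%) of the unsupported sites. Within 10 kb it was 4.30% of members, 2.77% of sites with 1 mark and 8.68% of unsupported sites. The median distance to a strong site was 173129 bp at members, 272264 bp with 1 mark and 248011 bp at unsupported sites. The density ran from 0.544 members per Mb on chromosome 3 to 1.28 on chromosome 11. On the same chromosomes it ran from 0.981 to 1.61 for strong and from 0.450 to 0.942 for unsupported sites. In the last 5 Mb of a chromosome, which make up 3.86% of the length, lay 4.50% of members, 4.35% of strong and 5.20% of unsupported sites.

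The same support was counted at every stage, at distal sites with a peak in exactly 1 H3K4me3 list of a stage and in none of the other stages. Both supporting marks of the same stage were found at 1813 of 5304 in zygonema (34.2%), 1 of 1631 in leptonema, 2 of 26 in early pachynema, 0 of 133 in late pachynema and 3 of 1044 in diplonema. H3K4me2/3, with or without H3K9ac, was found at 63.4% in zygonema, 60.9% in leptonema, 19.2% in early and 26.3% in late pachynema, and 66.7% in diplonema. The H3K9ac lists held from 516 to 16003 peaks, and the part of list length in these counts was not tested.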

How the data were processed

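ChIP-Seq peak lists of sorted spermatocyte nuclei from mouse testis were analysed. The authors aligned reads with BWA 0.7.12 to mm10 and called peaks with MACS2 2.1.2 in broad mode against stage-matched input, as the methods state for H3K4me3; for H3K9ac the control is not given in the sources used here. The deposited values are peak coordinates per library (chromosome, start, end), with no score, depth or count, so a longer list can reflect a deeper or purer library, and a site without a peak can carry the mark below the threshold. The 20 lists held 238528 peaks. The other 31 samples, input DNA and the survey of further marks among them, were not analysed here.

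Peaks of the 10 H3K4me3 lists were merged when they overlapped or adjoined. A call was an overlap of at least 1 bp, and transcript 5′ ends were those of GENCODE M21. Groups followed the sample titles. Shares were compared by a two-sided exact sign-flip test over 8 sorted populations with a threshold of 0.05. Nothing in the labels says that the nuclei of both experiments came from separate animals. Intervals are exact binomial (95%) and cover counting over sites only. Sequence was read from GRCm38.p6, the same assembly as mm10, and promoters from RefSeq (GRCm38). Sites were named by rule: those at annotated hotspots, 3 of each zygonema list with the highest mean width percentile, those in all 4 leptonema lists, the extremes of distance and overlap, and those with the most words. The members, lists and comparisons were chosen with earlier results of these data known. Alternatives covered the 5′ end window, transcripts, overlap, merging, peak width, list size, support, later peaks, each list left out, the units of the test and the word settings. Python 3.11.15 with numpy 2.4.6, scipy 1.17.1 and matplotlib 3.10.9 was used, and the steps were tested on simulated data, in which 1500 of 1500 simulated sites were placed in their class.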

Additional observations from a re-analysis of the deposited data

How the results depend on the processing

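The number of supported weak sites stayed within 1.5 times of 1999 under 17 of 22 alternatives. It was 614 with the wider peaks, 58 with equal list sizes, 3640 with support from H3K4me2/3 alone and 73 for zygonema experiment 2 alone, and without each list in turn it ran from 1998 to 4588. The mean leptonema H3K4me3 share of 6.20% became 6.84% with protein-coding transcripts, 8.96% with the wider peaks, 14.7% with equal list sizes, 5.44% with H3K9ac support, 4.82% with H3K4me2/3 support and 6.68% with absence from 5 of 6 later lists. It was 5.53% for sites of zygonema experiment 1 and 24.0% for those of experiment 2, and 5.86% to 41.2% without each list in turn. The difference from unsupported sites kept its direction under all 25 alternatives and its side of the threshold under 20. It was 6.35 points with equal list sizes (exact p = 0.0625), 1.62 points with H3K9ac support (exact p = 0.5), 3.35 points with the replicate block and 11.0 points with leptonema lists alone (exact p = 0.5 for both, the smallest possible), and 2.95 to 9.83 points without each list in turn. The difference from strong sites, not past the threshold under any of 24 alternatives, was -6.26 points with the replicate block, -2.24 with equal list sizes, -3.55 with the wider peaks, -9.97 with each list as a unit and -24.8 with leptonema lists alone, and reversed to 9.50 points for members of zygonema experiment 2; without each list in turn it ran from -6.87 to -4.14 points. The word difference of 23.5 points was 27.4 with the wider peaks, 19.8 with equal list sizes, 13.1 with 50 bp on either side and 10.6 for zygonema experiment 2, and 16.2 to 25.04 without each list in turn. The alternatives that split by zygonema experiment, left out members whose supporting peak reached another site or kept strong sites with both supports were chosen after seeing the data. Without a zygonema list no strong site can be defined, so that comparison was not run. Except where a setting changes the sites counted by its construction, the cause was not tested. Depth cannot be read from the lists.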
